A study of Homo sapiens with 16 samples.

Results

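The genes described here are 38 genes of homologous recombination, the Fanconi pathway, the DNA damage checkpoint and mismatch repair, taken as a list of symbols from the gene-level count table. All 38 were found among its 27037 symbols, and all 38 were among the 15415 genes with enough counts to be tested. They were read by role as 5 genes of break sensing and end resection, 5 BRCA mediators, 5 recombination paralogs, 3 strand invasion genes, 8 subunits of the Fanconi core complex, 3 genes of the ID2 complex and its ubiquitin-conjugating enzyme, 6 checkpoint genes, 2 mismatch repair genes and POLQ. RNA was sequenced from SK-N-BE(2)C, an adrenergic neuroblastoma cell line with amplified MYCN, after 5 days in 1 of 4 conditions with 4 replicates each. The groups were vehicle (DMSO), 10 μM retinoic acid (RA), 1 μM palbociclib (PB), and both agents at those doses (PB+RA). PB blocks the kinases CDK4 and CDK6, and RA is used in the clinic to make neuroblastoma cells differentiate. All groups shared the same line and the same serum-containing medium, and replicates were different passages of that line plated independently, so the spread between them is that of 1 line and not of several tumours.

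Homologous recombination copies lost sequence from the sister chromatid. Broken ends are sensed and cut back to single strands, BRCA1 with BARD1 and BRCA2 with PALB2 prepare them for strand exchange, and recombination paralogs and strand invasion genes help the filament form and invade. The Fanconi pathway opens DNA crosslinks: a core complex, with the conjugating enzyme UBE2T, attaches ubiquitin to FANCD2 and FANCI, and the marked pair directs cutting and recombination. ATM and ATR are the kinases that signal breaks and stalled forks, and CHEK1 and CHEK2 carry that signal to the cell cycle. Much of this machinery is used while DNA is copied, and many of its genes are textbook targets of E2F factors, which are held inactive by RB when CDK4 and CDK6 are blocked.

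The libraries held 19515779 to 31620821 counts. Expression is given as CPM, the count of a gene per 1000000 counts of its library, with the 4 replicates always in the order 1 to 4. Replicates 1 and 2 stood apart from replicates 3 and 4 in every group, and the labels name no batch for it: over all genes tested, deviations from the group mean correlated at 0.155 to 0.447 between groups for different numbers of the same pair of replicates, and at -0.492 to -0.236 across the pairs. Adrenergic markers were present in every sample, with summed levels of the 8 markers between 3570 and 8693 CPM. The 5 leukocyte and endothelial markers found in the table summed to at most 8.30 CPM, and PECAM1 had at most 3 counts in every sample. Schwann cell markers (5 found) summed to 18.4 to 54.6 CPM with SOX10 at 3 counts or fewer everywhere, and the 9 mesenchymal markers found summed to 248 to 404 CPM.

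The summed level of the 38 genes was lower in each treated group. It was 1893 to 1943 CPM in the DMSO samples, 1660 to 1709 CPM with RA, 1219 to 1338 CPM with PB and 861 to 1025 CPM with PB+RA, and no 2 groups overlapped. A gene was called when edgeR's quasi-likelihood test gave a Benjamini-Hochberg adjusted p under 0.05 over all genes tested and the log2 fold change passed 0.5 in size. Log2 fold changes are given ± their SE. With PB, 22 of the 38 genes fell and 2 rose, against 11.3% and 16.9% of all genes tested. With RA alone none was called in either direction, against 2.54% lower and 10.8% higher of all genes. With PB+RA, 30 of the 38 fell and 1 rose, against 17.9% and 24% of all genes. The median log2 fold change of the 38 genes was -0.62 with PB, -0.21 with RA and -1.16 with PB+RA, where the median of all genes was 0.03, 0.01 and 0.04. In replicates 1 and 2 alone, 22 of the 38 genes fell with PB, 1 with RA and 30 with PB+RA, and in replicates 3 and 4 alone 23, 3 and 29. Of all genes tested, 1872, 308 and 2832 of 15515 fell in replicates 1 and 2. In replicates 3 and 4 these numbers were 1925, 689 and 2892 of 15414. In RNA from whole cultures, fewer cells that express a gene and less RNA per cell cannot be told apart. Cell cycle markers moved with these genes: the summed level of 10 of them, among them MKI67, TOP2A and CDK1, was 2725 to 2793 CPM with DMSO, 2126 to 2315 CPM with RA, 1062 to 1306 CPM with PB and 460 to 654 CPM with PB+RA. Their part in the fall of the repair genes was not tested.

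**Figure D1:**
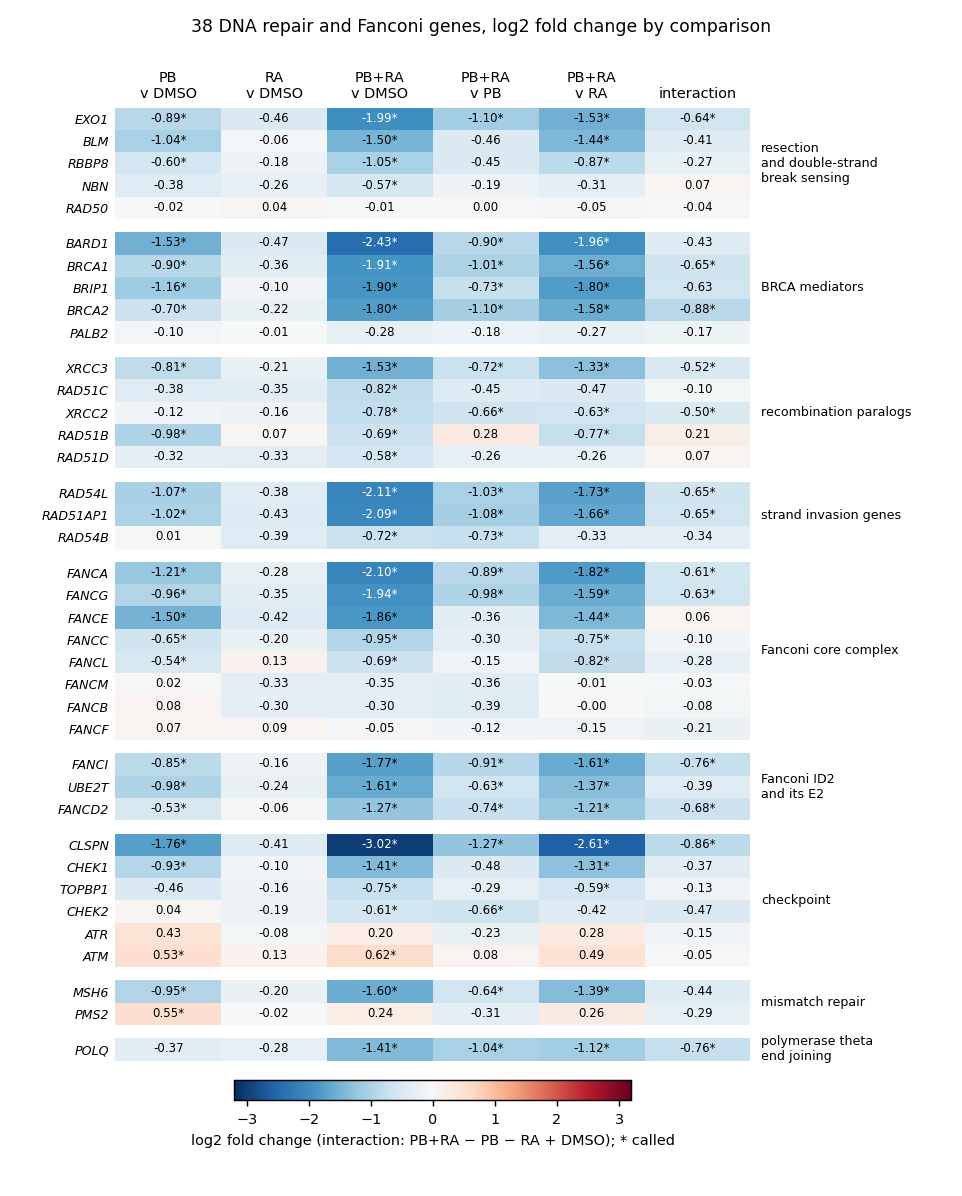
Log2 fold changes of the 38 genes (rows, grouped by role) in the 5 comparisons and the interaction (columns), with the value printed in each cell, blue for lower and red for higher, and an asterisk where the change was called. The third column holds 30 called falls and 1 called rise, and the second holds no call.

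The promoters of the genes with the deepest falls and of those that stood highest are shown here because the members moved together. Each line is 130 bases, 100 before to 30 after the annotated start, 5′ to 3′ on the strand of the gene, from RefSeq (GRCh38.p14), and capitals mark an E2F-type motif: TTCCCGC, its variant TTGGCGC, its variant TTGCCGC or its variant TTCGCGC, searched on both strands. The 6 largest falls with PB+RA were those of CLSPN (chr1:35769949-35770078, minus strand), BARD1 (chr2:214809654-214809783, minus), RAD54L (chr1:46247588-46247717, plus), FANCA (chr16:89816618-89816747, minus), RAD51AP1 (chr12:4538790-4538919, plus) and EXO1 (chr1:241848104-241848233, plus).
CLSPN: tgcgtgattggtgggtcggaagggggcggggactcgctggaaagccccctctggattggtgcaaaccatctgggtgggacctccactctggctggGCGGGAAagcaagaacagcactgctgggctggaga
BARD1: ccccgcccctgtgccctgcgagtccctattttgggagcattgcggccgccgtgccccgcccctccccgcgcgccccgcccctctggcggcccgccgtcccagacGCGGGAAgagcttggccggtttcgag
RAD54L: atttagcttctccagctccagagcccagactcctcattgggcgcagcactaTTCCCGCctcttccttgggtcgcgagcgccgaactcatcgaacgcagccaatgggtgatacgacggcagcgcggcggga
FANCA: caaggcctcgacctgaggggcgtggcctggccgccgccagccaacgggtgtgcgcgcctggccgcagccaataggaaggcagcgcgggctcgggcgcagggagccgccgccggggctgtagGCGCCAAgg
RAD51AP1: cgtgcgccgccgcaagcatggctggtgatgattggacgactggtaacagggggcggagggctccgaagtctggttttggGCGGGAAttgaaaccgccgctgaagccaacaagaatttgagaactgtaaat
EXO1: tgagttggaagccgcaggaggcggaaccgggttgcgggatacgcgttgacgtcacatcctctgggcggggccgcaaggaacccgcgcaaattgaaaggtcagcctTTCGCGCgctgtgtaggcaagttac
The 4 genes with the highest fold changes with PB+RA were ATM (chr11:108222967-108223096, plus), PMS2 (chr7:6009077-6009206, minus), ATR (chr3:142578704-142578833, minus) and RAD50 (chr5:132556877-132557006, plus).
ATM: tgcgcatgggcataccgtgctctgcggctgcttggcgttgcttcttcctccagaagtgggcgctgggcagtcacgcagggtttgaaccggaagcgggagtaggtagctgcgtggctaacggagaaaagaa
PMS2: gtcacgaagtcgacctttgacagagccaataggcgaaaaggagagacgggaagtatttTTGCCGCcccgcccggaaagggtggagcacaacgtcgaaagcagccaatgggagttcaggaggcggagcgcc
ATR: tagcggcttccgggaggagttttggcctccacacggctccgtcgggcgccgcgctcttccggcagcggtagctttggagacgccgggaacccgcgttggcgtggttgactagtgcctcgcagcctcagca
RAD50: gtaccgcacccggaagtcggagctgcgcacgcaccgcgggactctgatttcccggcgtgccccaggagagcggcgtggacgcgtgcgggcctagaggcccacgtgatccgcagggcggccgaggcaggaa
Each of the 6 windows of the falling genes held a motif, and of the 4 other windows that of PMS2 held one. Where a gene had several windows, the first with a motif in these 130 bases was shown, which favours a match. The other window of EXO1 held none. The genes were picked by their fold change, and no share over all genes was counted for windows of this length. A match is a run of letters and not a measured site.

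Over the whole promoter windows, 250 bases before to 50 after the start, 22 of the 35 members with a window held the E2F-type motif (62.9%), counting a gene with several windows once if any held it, against 15.3% of all 27305 genes with a window and 24.3% of the 11316 tested ones. The CHR motif, TTTGAA or TTCGAA on either strand, which is known from genes of late cell cycle phases, was found for 5 of the 35 (14.3%), against 19.5% of all genes with a window and 15.5% of tested genes. Among the 22 members with the E2F-type motif, the median change with PB was -0.90 on the log2 scale, and 16 of them fell. The 13 without it had a median of -0.10, and 5 of them fell, among them BRCA2, CHEK1 and UBE2T. With PB+RA the medians were -1.57 with the motif, where 20 of 22 fell, and -0.61 without it, where 7 of 13 fell. With RA alone they were -0.24 and -0.18, with no call in either set. Of all genes tested, 11.3% fell with PB and 17.9% with PB+RA. Parted by the CHR motif, the member medians with PB were -0.65 with it and -0.65 without it, and with PB+RA -1.41 and -1.16. These values describe the members and were not tested.

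**Figure D2:**
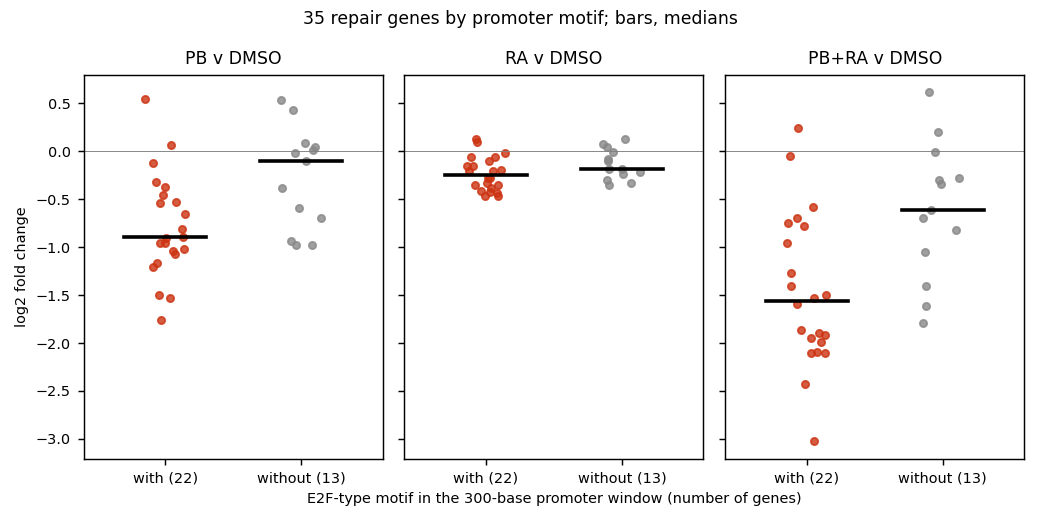
Log2 fold change of each of 35 genes (points) with PB, RA and PB+RA against DMSO, parted by whether the promoter window holds an E2F-type motif, with bars at the medians. With PB+RA the medians sit at -1.57 with the motif (22 genes) and -0.61 without (13 genes), and PMS2 is the gene with the motif that stands above 0 in the third panel.

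Break sensing and end resection split by gene. With PB+RA, 4 of the 5 genes fell, and the depth of the fall was greatest for the resecting exonuclease EXO1, while RAD50 was not called. EXO1 (chr1:242011269-242058450, with all gene positions from here on in hg19), the exonuclease that extends resection, stood at 83.0, 84.4, 88.2 and 89.1 CPM with DMSO, 64.3, 64.9, 60.5 and 62.0 CPM with RA, 37.5, 40.2, 52.1 and 55.5 CPM with PB and 20.4, 17.9, 27.0 and 22.9 CPM with PB+RA. Its groups were in a strict order, with no overlap in any of the 5 comparisons, and the log2 fold change was -0.89 ± 0.12 (adjusted p = 1.2e-05) with PB and -1.99 ± 0.13 (adjusted p = 8.0e-10) with PB+RA. BLM (chr15:91260577-91359396), the helicase that unwinds DNA for long resection and dissolves joined recombination products, stood at 43.7, 47.2, 39.3 and 48.3 CPM with DMSO, 44.1, 43.3, 42.7 and 42.5 CPM with RA, 20.2, 17.995, 24.4 and 24.2 CPM with PB and 14.2, 12.1, 19.4 and 18.7 CPM with PB+RA. DMSO and RA samples of BLM overlapped, and all 8 samples with PB lay under them, with a log2 fold change of -1.04 ± 0.13 with PB and -1.50 ± 0.13 with PB+RA. RAD50 (chr5:131891711-131982041), the ATPase of the complex that tethers broken ends, stood at 80.7, 86.4, 68.1 and 72.4 CPM with DMSO, 79.0, 88.9, 74.3 and 75.8 CPM with RA, 86.2, 82.4, 62.6 and 72.9 CPM with PB and 77.8, 81.9, 72.5 and 78.5 CPM with PB+RA. The 4 groups of RAD50 overlapped throughout, and its log2 fold change with PB+RA was -0.01 ± 0.092 (adjusted p = 0.91). RBBP8 (CtIP), which starts resection, fell, with log2 fold changes of -0.60 ± 0.071 with PB and -1.05 ± 0.072 with PB+RA. NBN, the partner of RAD50 that recruits ATM, passed the fold minimum with PB+RA alone (-0.57 ± 0.095), and with PB it was at -0.38 ± 0.095.

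The BRCA mediators fell together but for PALB2. BARD1 (chr2:215590370-215674407), the obligate partner of BRCA1, had the deepest fall of the group and stood at 20.4, 21.3, 17.6 and 19.4 CPM with DMSO, 13.8, 15.7, 13.0 and 14.7 CPM with RA, 5.79, 6.39, 6.46 and 8.51 CPM with PB and 2.78, 3.10, 4.36 and 4.66 CPM with PB+RA. None of its groups overlapped in the 5 comparisons, and the log2 fold change was -1.53 ± 0.15 (adjusted p = 2.6e-07) with PB and -2.43 ± 0.15 (adjusted p = 6.6e-10) with PB+RA. BRCA1 (chr17:41196312-41322262), the ubiquitin ligase that favours resection and recombination, stood at 81.3, 75.8, 80.6 and 80.6 CPM with DMSO, 64.5, 59.0, 64.9 and 61.8 CPM with RA, 42.6, 36.6, 43.5 and 47.3 CPM with PB and 19.8, 15.1, 27.1 and 24.3 CPM with PB+RA. Each step down was clear of the one above it, with -0.90 ± 0.12 with PB and -1.91 ± 0.13 with PB+RA. BRCA2 (chr13:32889223-32974405), which acts on the single strands that resection leaves, stood at 31.3, 26.1, 26.7 and 31.9 CPM with DMSO, 25.4, 26.0, 24.6 and 24.1 CPM with RA, 19.2, 16.4, 16.9 and 18.9 CPM with PB and 6.96, 7.62, 8.81 and 10.8 CPM with PB+RA. Its PB+RA samples lay clearly under all others, and the log2 fold change went from -0.70 ± 0.10 with PB to -1.80 ± 0.11 with PB+RA. PALB2 (chr16:23614481-23652642), the bridge between BRCA1 and BRCA2, stood at 24.8, 26.3, 25.7 and 27.5 CPM with DMSO, 26.9, 25.6, 26.5 and 25.1 CPM with RA, 24.8, 23.9, 23.6 and 24.9 CPM with PB and 20.8, 22.7, 23.0 and 21.2 CPM with PB+RA. Its DMSO samples overlapped those of RA and of PB, the PB samples lay just under the RA samples and the PB+RA samples were lowest, but the log2 fold change of -0.28 ± 0.055 (adjusted p = 2.7e-04) stayed inside the fold minimum. BRIP1, a helicase that binds BRCA1 and is also a Fanconi gene, fell, with log2 fold changes of -1.16 ± 0.21 with PB and -1.90 ± 0.22 with PB+RA.

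All 5 recombination paralogs fell with PB+RA, 4 of them by less than 1 on the log2 scale. XRCC3 (chr14:104163946-104181841), which works with RAD51C, stood at 47.1, 43.0, 44.7 and 45.1 CPM with DMSO, 39.1, 40.0, 35.8 and 41.6 CPM with RA, 23.6, 23.5, 25.6 and 29.7 CPM with PB and 16.3, 12.4, 16.3 and 18.3 CPM with PB+RA. Its groups did not overlap, and the log2 fold change was -0.81 ± 0.10 with PB and -1.53 ± 0.10 (adjusted p = 9.8e-10) with PB+RA. Most of its exonic bases lie opposite exons of KLC1, which had 309 CPM on average, and the strand setting of the authors' counting is not given in the sources used here, so its counts are less certain. RAD51C (chr17:56769934-56812972), a member of both paralog complexes, stood at 52.3, 47.5, 45.9 and 44.8 CPM with DMSO, 40.8, 36.5, 35.4 and 37.7 CPM with RA, 38.1, 34.5, 36.7 and 36.98 CPM with PB and 25.8, 26.5, 29.3 and 28.0 CPM with PB+RA. RA and PB samples of RAD51C both lay under DMSO with log2 fold changes inside the fold minimum (-0.35 ± 0.063 and -0.38 ± 0.064), and PB+RA gave -0.82 ± 0.064. RAD51D (chr17:33419240-33448541), which pairs with XRCC2, stood at 21.8, 21.3, 20.6 and 20.9 CPM with DMSO, 16.1, 17.7, 17.1 and 17.0 CPM with RA, 17.3, 17.5, 17.8 and 15.1 CPM with PB and 15.3, 13.0, 16.6 and 12.7 CPM with PB+RA. All its treated samples lay under DMSO, the PB+RA samples overlapped those of PB and of RA, and the log2 fold change with PB+RA was -0.58 ± 0.085. XRCC2 itself was at -0.12 ± 0.069 with PB and fell with PB+RA (-0.78 ± 0.07).

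RAD51B (chr14:68286496-69196935), chosen for its pattern after its values were seen, fell with PB and was not called in the comparison of PB+RA with PB. It stood at 3.19, 4.97, 3.64 and 3.48 CPM with DMSO, 3.36, 4.25, 3.96 and 4.59 CPM with RA, 1.93, 1.64, 1.95 and 2.22 CPM with PB and 1.83, 1.95, 2.75 and 3.13 CPM with PB+RA. Its DMSO and RA samples overlapped, all PB and PB+RA samples lay under them, and PB+RA overlapped PB with 2 samples above it. The log2 fold change was -0.98 ± 0.19 (adjusted p = 4.0e-04) with PB and -0.69 ± 0.19 (adjusted p = 0.0036) with PB+RA, and that of PB+RA against PB was 0.28 ± 0.20 (adjusted p = 0.29). It had 34 to 122 counts in a sample, and in replicates 3 and 4 alone the PB+RA change was -0.35 and not called.

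The strand invasion genes fell with PB+RA in all 3 cases, and RAD54B did so with no call under PB. RAD54L (chr1:46712133-46744152), the motor that helps the invasion of the sister strand, stood at 32.2, 30.2, 33.7 and 32.4 CPM with DMSO, 23.8, 25.0, 26.0 and 24.6 CPM with RA, 15.96, 13.4, 15.5 and 16.1 CPM with PB and 6.48, 5.98, 8.81 and 9.22 CPM with PB+RA. RAD51AP1 (chr12:4647964-4669213), which stimulates pairing of the strands, stood at 61.1, 58.0, 61.1 and 63.2 CPM with DMSO, 47.3, 46.5, 43.6 and 44.2 CPM with RA, 29.2, 29.7, 29.4 and 32.0 CPM with PB and 12.2, 15.2, 14.7 and 16.1 CPM with PB+RA. Neither gene had overlapping groups, and log2 fold changes with PB+RA were -2.11 ± 0.11 (adjusted p = 8.8e-11) for RAD54L and -2.09 ± 0.071 (adjusted p = 7.8e-13) for RAD51AP1. RAD54B, a relative of RAD54L, stood at 16.2, 15.6, 18.03 and 18.5 CPM with DMSO, 13.2, 12.05, 13.7 and 13.5 CPM with RA, 17.0, 15.9, 16.7 and 19.1 CPM with PB and 9.86, 8.24, 11.4 and 12.8 CPM with PB+RA. Its PB samples overlapped DMSO, its RA samples lay under DMSO, and its PB+RA samples overlapped RA, with log2 fold changes of 0.01 ± 0.11 with PB, -0.39 ± 0.11 with RA and -0.72 ± 0.11 (adjusted p = 2.4e-05) with PB+RA. RAD54L shares 813 exonic bases with LRRC41 on the other strand, with the same limit as for XRCC3.

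**Figure D3:**
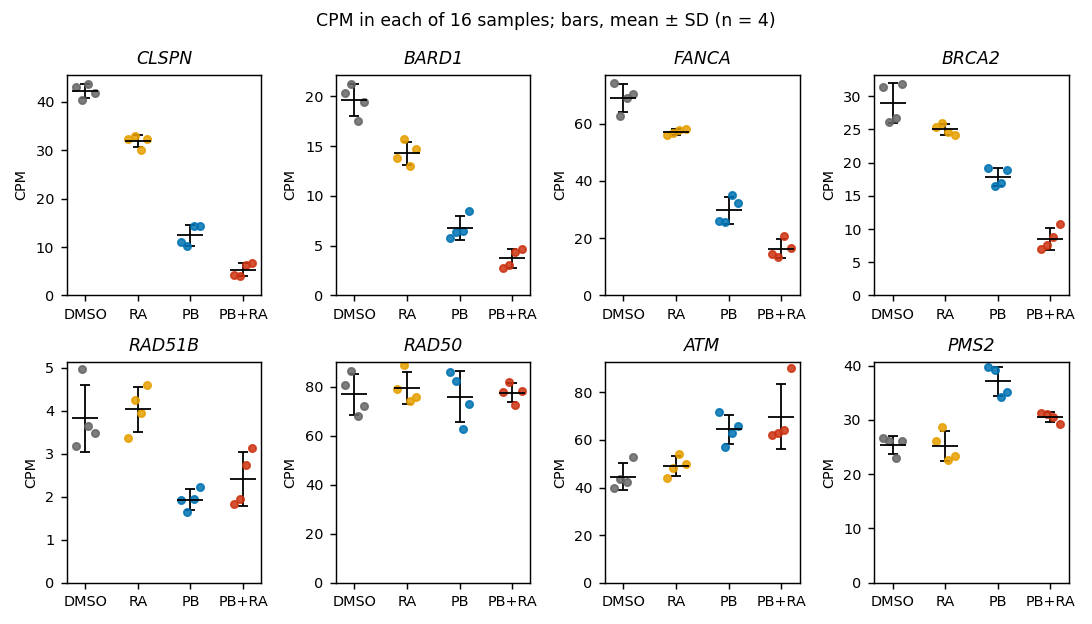
CPM of 8 of the 38 genes in each of the 16 samples (points), with the mean and SD of each group of 4, each axis starting at 0. CLSPN, BARD1, FANCA and BRCA2 step down from DMSO through RA and PB to PB+RA, RAD51B is low in both PB groups, RAD50 overlaps in all groups, and ATM and PMS2 stand higher with PB.

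Of the 8 subunits of the Fanconi core complex, 5 were called lower with PB+RA and 3 were not. With no fold minimum 6 of the 8 were lower at the adjusted p, against 4839 of the 15415 genes tested. FANCA (chr16:89793091-89883385), a scaffold subunit, stood at 74.1, 62.5, 69.1 and 70.5 CPM with DMSO, 56.0, 56.6, 57.9 and 58.3 CPM with RA, 26.0, 25.6, 35.2 and 32.4 CPM with PB and 14.6, 13.5, 20.7 and 16.7 CPM with PB+RA. Its groups did not overlap, with a log2 fold change of -1.21 ± 0.12 (adjusted p = 3.4e-07) with PB and -2.10 ± 0.12 (adjusted p = 2.9e-10) with PB+RA, and 2409 of its exonic bases lie opposite ZNF276, as 165 of FANCC lie opposite AOPEP and 458 of FANCI opposite POLG. FANCG (chr9:35073832-35080001), which binds FANCA, stood at 46.8, 44.7, 44.7 and 45.4 CPM with DMSO, 35.8, 36.1, 36.3 and 34.7 CPM with RA, 22.5, 20.7, 24.7 and 25.2 CPM with PB and 10.4, 9.30, 15.1 and 13.4 CPM with PB+RA. It fell, with log2 fold changes of -0.96 ± 0.11 with PB and -1.94 ± 0.11 with PB+RA, again with no overlap of groups. FANCF (chr11:22644079-22647369), the adaptor that joins the subcomplexes, stood at 18.3, 18.2, 20.9 and 21.1 CPM with DMSO, 19.5, 20.6, 22.7 and 21.5 CPM with RA, 21.5, 19.98, 19.3 and 21.4 CPM with PB and 17.8, 20.3, 19.7 and 19.5 CPM with PB+RA. All groups of FANCF overlapped and the log2 fold change with PB+RA was -0.05 ± 0.071 (adjusted p = 0.55). FANCE, which binds FANCD2, fell, with log2 fold changes of -1.50 ± 0.11 with PB and -1.86 ± 0.11 with PB+RA. FANCC, its partner, was at -0.65 ± 0.11 and -0.95 ± 0.11, and FANCL, the ubiquitin ligase of the complex, at -0.54 ± 0.14 and -0.69 ± 0.14, all called. The PB call of FANCL was lost without DMSO replicate 4, at -0.46. FANCB, which supports FANCL, and FANCM, the translocase that brings the complex to DNA, had log2 fold changes of -0.30 ± 0.16 and -0.35 ± 0.073 with PB+RA, and neither was called in any comparison.

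The substrates of that ligase and its conjugating enzyme all fell with PB and with PB+RA. FANCI (chr15:89787176-89860492), which is ubiquitinated together with FANCD2, stood at 177, 176, 166 and 162 CPM with DMSO, 158, 158, 151 and 148 CPM with RA, 95.03, 92.0, 95.1 and 94.97 CPM with PB and 44.8, 44.8, 53.8 and 61.0 CPM with PB+RA. Its 4 PB samples were nearly equal, the PB+RA samples lay far under them, and the log2 fold change was -0.85 ± 0.076 (adjusted p = 1.2e-07) with PB and -1.77 ± 0.078 (adjusted p = 1.2e-11) with PB+RA. UBE2T (chr1:202300672-202311112) stood at 126, 128, 131 and 126 CPM with DMSO, 110.1, 114, 109 and 105 CPM with RA, 61.0, 59.7, 70.1 and 68.2 CPM with PB and 41.8, 37.5, 45.8 and 45.8 CPM with PB+RA. Its groups did not overlap, and it fell, with log2 fold changes of -0.98 ± 0.066 with PB and -1.61 ± 0.068 with PB+RA. FANCD2 (chr3:10068054-10143616), the clamp subunit that the core complex marks, stood at 55.2, 50.5, 46.8 and 49.4 CPM with DMSO, 52.2, 51.1, 47.1 and 44.8 CPM with RA, 39.0, 35.1, 33.6 and 32.0 CPM with PB and 23.7, 18.8, 21.4 and 21.5 CPM with PB+RA. DMSO and RA overlapped for FANCD2, and its log2 fold change was -0.53 ± 0.079 with PB and -1.27 ± 0.081 with PB+RA. Pseudogene copies of FANCD2, CHEK2 and PMS2 exist in the genome, and reads shared with them make the counts of these genes less certain.

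The checkpoint genes moved in both directions. CLSPN (chr1:36185819-36235579), the adaptor claspin that lets ATR activate CHEK1, had the deepest fall of the 38 genes and stood at 43.0, 40.3, 43.7 and 41.8 CPM with DMSO, 32.4, 33.0, 30.1 and 32.3 CPM with RA, 11.1, 10.2, 14.3 and 14.4 CPM with PB and 4.21, 4.07, 6.34 and 6.61 CPM with PB+RA. Its groups were in a strict order with no overlap, and the log2 fold change was -1.76 ± 0.13 (adjusted p = 2.5e-08) with PB and -3.02 ± 0.15 (adjusted p = 2.8e-11) with PB+RA. CHEK1 (chr11:125495058-125546150), the kinase that claspin serves, stood at 102, 101, 102 and 99.8 CPM with DMSO, 100.1, 90.98, 95.2 and 92.9 CPM with RA, 51.5, 47.8, 55.1 and 57.1 CPM with PB and 32.0, 30.6, 45.7 and 47.1 CPM with PB+RA. DMSO and RA samples of CHEK1 overlapped, all PB samples lay under them, and it fell, with log2 fold changes of -0.93 ± 0.11 with PB and -1.41 ± 0.11 with PB+RA. ATR (chr3:142167849-142297575) stood at 43.3, 48.5, 41.3 and 45.2 CPM with DMSO, 38.5, 43.5, 45.0 and 42.3 CPM with RA, 59.3, 64.0, 57.6 and 59.2 CPM with PB and 48.1, 52.7, 50.6 and 57.5 CPM with PB+RA. Its PB samples were clear of DMSO on the high side (0.43 ± 0.066, adjusted p = 3.8e-05), inside the fold minimum, and with PB+RA it was at 0.20 ± 0.066. TOPBP1, the activator of ATR, fell with PB+RA (-0.75 ± 0.044) and was inside the fold minimum with PB (-0.46 ± 0.044). CHEK2, the kinase under ATM, was at 0.04 ± 0.10 with PB and fell with PB+RA (-0.61 ± 0.10).

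ATM and PMS2 were the genes called higher. ATM (chr11:108093771-108239829), the kinase that answers double-strand breaks, stood at 39.8, 43.5, 42.2 and 52.8 CPM with DMSO, 44.1, 48.4, 53.9 and 49.9 CPM with RA, 71.9, 57.0, 63.1 and 66.0 CPM with PB and 62.0, 62.7, 64.1 and 90.2 CPM with PB+RA. All PB and PB+RA samples lay above all DMSO samples, and PB+RA replicate 4 stood far above the other 3. The log2 fold change of ATM was 0.53 ± 0.12 (adjusted p = 9.3e-04) with PB and 0.62 ± 0.11 (adjusted p = 1.7e-04) with PB+RA. Without PB+RA replicate 4 the latter was 0.47 and inside the fold minimum, and leaving out single libraries in turn ended the PB call in 5 of 16 fits (those without DMSO replicate 1, 2 or 3 or PB replicate 1 or 4), with values from 0.46 to 0.62. Against RA, ATM was inside the fold minimum (0.49 ± 0.11) and was called in 8 of the 16 fits, with values from 0.36 to 0.55.

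PMS2 (chr7:6010556-6048761), which nicks DNA in mismatch repair, stood at 26.6, 26.0, 23.0 and 26.0 CPM with DMSO, 26.2, 28.7, 22.7 and 23.3 CPM with RA, 39.6, 39.2, 34.2 and 35.2 CPM with PB and 31.3, 31.1, 30.5 and 29.3 CPM with PB+RA. The PB samples lay above all DMSO and RA samples, and the PB+RA samples lay between. The log2 fold change was 0.55 ± 0.076 (adjusted p = 1.5e-05) with PB and 0.24 ± 0.076 with PB+RA, the latter inside the fold minimum. The PB call needed DMSO replicate 3 and PB replicates 1 and 2, since leaving out any of these ended it, with values from 0.48 to 0.55 over 16 fits, and a correction for GC content and length took ATM to 0.42 and PMS2 to 0.47, both inside the minimum. MSH6 (chr2:47922669-48037202), which recognises mismatches, stood at 100.4, 112, 104 and 98.9 CPM with DMSO, 90.6, 99.2, 87.8 and 84.8 CPM with RA, 50.8, 49.3, 55.9 and 57.9 CPM with PB and 29.9, 28.7, 40.0 and 41.5 CPM with PB+RA. Its PB and PB+RA samples lay under all others, and it fell, with log2 fold changes of -0.95 ± 0.10 with PB and -1.60 ± 0.10 (adjusted p = 1.1e-09) with PB+RA. The strand limit given for XRCC3 holds here too, since 4022 exonic bases of MSH6 lie opposite FBXO11, which had 50.5 CPM on average, as 827 of NBN lie opposite OSGIN2.

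POLQ (chr3:121150278-121264835), the polymerase that joins ends through short homologies, stood at 28.7, 29.2, 27.1 and 30.6 CPM with DMSO, 24.3, 27.0, 22.3 and 21.8 CPM with RA, 25.3, 20.6, 22.2 and 21.2 CPM with PB and 9.26, 10.2, 10.5 and 14.6 CPM with PB+RA. Its PB and RA samples lay somewhat under DMSO, with log2 fold changes of -0.37 ± 0.11 and -0.28 ± 0.11 inside the fold minimum, and the PB+RA samples lay far under all others. The log2 fold change with PB+RA was -1.41 ± 0.11 (adjusted p = 1.4e-08). POLQ was 1 of 8 genes called lower with PB+RA and not with PB, with NBN, RAD51C, RAD51D, XRCC2, RAD54B, TOPBP1 and CHEK2. The direct comparison of PB+RA with PB called 4 of these 8, namely POLQ, XRCC2, RAD54B and CHEK2. How many of all genes share this pattern was not counted. With PB, TOPBP1 was called in 2 of the 16 fits that left out 1 library and in replicates 1 and 2 alone (-0.51). NBN was called with PB in replicates 3 and 4 alone (-0.52).

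With RA alone the changes were small. By edgeR none of the 38 genes was called. With no fold minimum 15 passed the adjusted p, all of them lower, against 16.4% of all genes tested. At an unadjusted p under 0.05, 21 were lower and none higher, against 3293 and 3637 of the 15415 genes tested. DESeq2 and limma-voom with the same thresholds also called none. The largest changes were those of BARD1 (-0.47 ± 0.14, adjusted p = 0.016), EXO1 (-0.46 ± 0.12, adjusted p = 0.0069), RAD51AP1 (-0.43 ± 0.066, adjusted p = 1.2e-04), FANCE (-0.42 ± 0.10, adjusted p = 0.0052) and CLSPN (-0.41 ± 0.13, adjusted p = 0.02). BARD1 and EXO1 passed the fold minimum in 3 and 2 of the 16 fits that left out 1 library. In replicates 3 and 4 alone CLSPN (-0.51), EXO1 (-0.59) and RAD51AP1 (-0.56) were called, and in replicates 1 and 2 alone BARD1 (-0.504) was. Of all genes tested, 689 of 15414 fell in replicates 3 and 4 alone and 308 of 15515 in replicates 1 and 2 alone.

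The comparison of PB+RA with PB asks what RA adds once PB is present. It called 19 of the 38 genes lower and none higher, against 7.27% and 9.02% of all genes, with a median log2 fold change of -0.55. For the higher direction edgeR gave 0 genes at an unadjusted p under 0.05, against 3300 of the 15415 genes tested. DESeq2 and limma-voom called 0, against 1415 and 1349 of all genes tested. The 19 genes took in all 3 strand invasion genes, all 3 genes of the ID2 group and 4 of the 5 BRCA mediators, but 2 of the 8 core complex subunits (FANCA and FANCG). CLSPN again led with -1.27 ± 0.15 (adjusted p = 5.9e-06), before EXO1 with -1.10 ± 0.13 (adjusted p = 5.5e-06) and BRCA2 with -1.10 ± 0.11 (adjusted p = 1.4e-06). BLM (-0.46) and CHEK1 (-0.48) were just inside the fold minimum and were each called in 3 of the 16 fits that left out 1 library, while BRIP1, called at -0.73 ± 0.22, lost the call without PB replicate 4 or PB+RA replicate 1. FANCE, which fell strongly with PB, was at -0.36 ± 0.11 and was not called here.

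The interaction asks whether RA did more with PB than without it, on the log2 scale. For 13 genes the change with both agents was below the sum of the single changes, and for none above it, against 3.02% and 0.415% of all genes tested. For the upper direction edgeR gave 0 genes at an unadjusted p under 0.05, against 787 of the 15415 genes tested. DESeq2 and limma-voom called 0, against 103 and 65 of all genes tested. Of the 10 cell cycle markers, 8 were called below the sum, with a median of -0.98, where the median of the 38 genes was -0.38. The part of the markers in this was not tested. Among the 38, the 3 genes furthest from 0 were BRCA2 (-0.88 ± 0.15, adjusted p = 0.003), CLSPN (-0.86 ± 0.19, adjusted p = 0.016) and FANCI (-0.76 ± 0.11, adjusted p = 9.0e-04). For BRCA2, RA changed the level by -0.22 ± 0.10 without PB and -1.10 ± 0.11 with it, as the CPM values above show: the 4 RA samples were a little under DMSO and the 4 PB+RA samples were far under PB. POLQ (-0.76 ± 0.16), FANCD2 (-0.68 ± 0.11), RAD51AP1 (-0.65 ± 0.10), RAD54L (-0.65 ± 0.15), BRCA1 (-0.65 ± 0.18), EXO1 (-0.64 ± 0.17), FANCG (-0.63 ± 0.15), FANCA (-0.61 ± 0.17), XRCC3 (-0.52 ± 0.14) and XRCC2 (-0.50 ± 0.10) were the other 10. BRIP1 (-0.63 ± 0.30, adjusted p = 0.29) was not called, and a fit with the replicate number as a block called it at -0.65. With that block 981 of the 15415 genes tested were below the sum. The calls of BRCA2, CLSPN, FANCI, POLQ, FANCD2 and RAD51AP1 were made in all 16 fits that left out 1 library. Of the other 7, RAD54L was called in 12 of these fits, FANCG in 6, XRCC2 in 5, BRCA1 in 4, EXO1 and FANCA in 3 each and XRCC3 in 2. Leaving out any of the 16 libraries lowered the number called, to between 6 and 12. Over all genes tested the number below the sum went from 466 to between 289 and 445. In replicates 1 and 2 alone 14 of the 38 were called, against 459 of 15515 genes tested. In replicates 3 and 4 alone 6 were called, against 560 of 15414, and POLQ (-0.40) and RAD51AP1 (-0.47) were not among them.

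**Figure D4:**
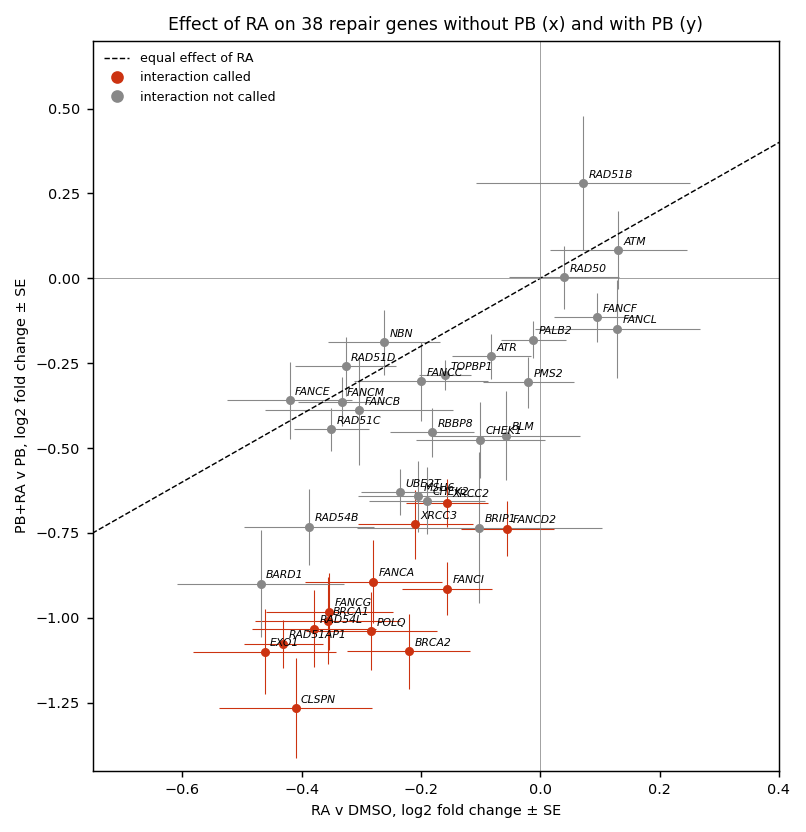
Log2 fold change of each of the 38 genes with RA added to DMSO (x axis) and with RA added to PB (y axis), each with its SE, and a dashed line where both are equal. The 13 genes called for the interaction (red) lie under the line, with CLSPN lowest at -1.27 on the y axis. RAD51B, which was not called, lies above the line and is the highest of the 38 at 0.28.

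The comparison of PB+RA with RA asks what PB adds once RA is present. Here 25 genes fell and none rose, against 14.1% and 14.9% of all genes, with a median log2 fold change of -0.997. In the higher direction edgeR gave 3 genes at an unadjusted p under 0.05 (ATM, ATR and PMS2, all inside the fold minimum), and DESeq2 and limma-voom called 0. The falls ran from -2.61 ± 0.14 for CLSPN and -1.96 ± 0.15 for BARD1 to -0.59 ± 0.044 for TOPBP1. RAD54B (-0.33 ± 0.11), CHEK2 (-0.42 ± 0.10), RAD51C (-0.47 ± 0.064), RAD51D (-0.26 ± 0.086) and NBN (-0.31 ± 0.10) were lower with PB+RA than with DMSO but were not called against RA.

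Another 126 genes of DNA repair were read in the same way, of which 124 were tested. With PB+RA, 50 fell (40.3%) and 9 rose (7.26%), against 17.9% and 24% of all genes, and their median log2 fold change was -0.38. With PB alone 29 fell (23.4%) and 6 rose (4.84%), against 11.3% and 16.9%. With RA alone 4 fell (3.23%) and 1 rose (0.806%), against 2.54% and 10.8%, so that the falls were near the share of all genes. The lists that follow are counted with PB+RA and read against the same 17.9% and 24%. Other homologous recombination genes counted 12 falls and 2 rises of 30, other Fanconi and crosslink genes 7 and 1 of 16, and other checkpoint genes 11 and 1 of 17. End joining had 7 falls and no rise of 12, base excision repair 7 and 2 of 16, and other mismatch repair 2 and none of 5. Nucleotide excision repair had 2 falls (11.1%) and 3 rises of 18, with a median of -0.12, and translesion synthesis and direct reversal 2 falls (20%) and no rise of 10, both near or under the share of all genes. For the lists with no rise edgeR gave 3 end joining genes higher at an unadjusted p under 0.05 and none in the other lists. Of the 15415 genes tested, 5564 were higher at that p. The count for these lists was not repeated with the other tools.

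Among the deepest falls of these other genes were those of NEIL3, a glycosylase that also opens crosslinks, and USP1, the enzyme that removes ubiquitin from FANCD2. NEIL3 went from 27.0 ± 0.919 to 4.15 ± 0.886 CPM (mean ± SD, n = 4), or -2.73 ± 0.12 (adjusted p = 1.3e-11) as log2 fold change. USP1 went from 109 ± 2.84 to 21.7 ± 4.16 CPM (-2.35 ± 0.11). The 9 rises led with NEIL2, a glycosylase of base excision repair, from 34.7 ± 3.81 to 88.9 ± 9.56 CPM (1.33 ± 0.12, adjusted p = 5.9e-08), and with ERCC2, a helicase of TFIIH, from 35.7 ± 2.97 to 90.7 ± 3.68 CPM (1.317 ± 0.064, adjusted p = 3.3e-11). ERCC6, the coupling factor of transcription and repair, rose by 0.97 ± 0.07, RECQL5, a helicase that restrains recombination, by 0.82 ± 0.072, and TP53BP1, which protects ends from resection, by 0.75 ± 0.045. WDR48, the cofactor of USP1, rose by 0.62 ± 0.051 while USP1 fell. EME2, a nuclease partner of MUS81, rose by 0.66 ± 0.18. NEIL1 (1.09 ± 0.32) and ERCC5 (0.55 ± 0.20) rose at levels under 2 CPM in every group, and NEIL1, EME2 and WDR48 lie opposite exons of more abundant genes.

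**Figure D5:**
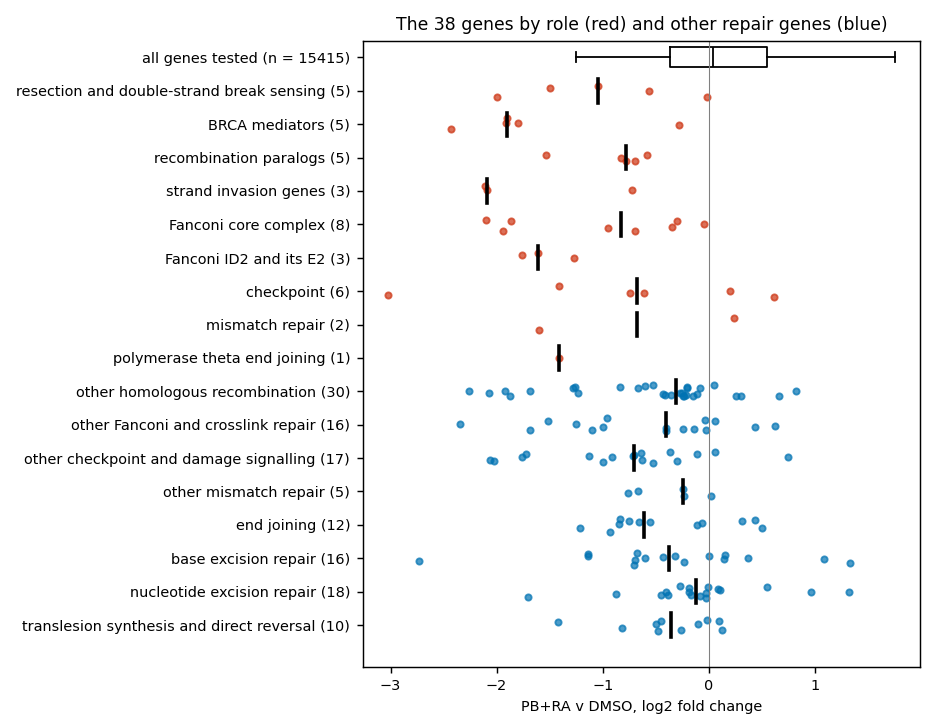
Log2 fold change with PB+RA against DMSO for each of the 38 genes by role (red points) and of the 124 other repair genes tested by list (blue points), with black bars at the medians, under a box of all 15415 genes (median and quartiles, whiskers at the 5th and 95th percentiles). The 38 genes have medians between -2.09 for the strand invasion genes and -0.68 for the checkpoint and mismatch repair lists, and the box of all genes has its median at 0.04.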

How the data were processed

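Polyadenylated RNA of 16 SK-N-BE(2)C samples was made into directional libraries and sequenced as paired 50-base reads. Per the labels, the authors trimmed reads with Trim Galore 0.6.4, aligned them to hg19 with STAR 2.6.1d and deposited raw counts per gene. The strand setting of the counting is not given in the sources used here. The deposited CPM values equal count over library total within 5e-12, so depth (19515779 to 31620821 counts) sets their precision. The authors' table of DESeq2 1.32.0 fold changes and p-values was not used.

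Counts were tested with edgeR 4.0.16 (R 4.3.3): genes kept by filterByExpr (15415 of 27037), TMM scaling, robust quasi-likelihood fit over all 16 samples with 1 coefficient per group and no block, Benjamini-Hochberg adjustment over all genes tested. SE is the log2 fold change over the root of F. The interaction is PB+RA minus PB minus RA plus DMSO. The fit was tested on simulated data. Replicate numbers come from the sample titles. Samples with the same number deviated together (r from 0.331 to 0.573 in 24 of 24 pairs), although replicates 1 and 2, and 3 and 4, also did (up to 0.447). The numbers were taken to pair the samples only in an alternative fit with the replicate number as a block. The main fit has no block, so this shared spread stays in its SE and p-values. Other alternatives were DESeq2 1.42.0, limma-voom (limma 3.58.1), other scaling, filters and thresholds, and fits on fewer samples. A GC and length correction (gene models of GENCODE lifted to hg19) was also an alternative. The members and lists were chosen with earlier results of these data known.

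Values in every sample are given for the 2 genes of each role with the largest and the 1 with the smallest absolute log2 fold change with PB+RA (all of roles with 3 or fewer), for genes called higher, and for the 3 called genes furthest from 0 in the interaction. Of the other repair genes, those called higher with PB+RA and the 3 largest falls were to be named, and the result of 1 of these falls is not reported here. Promoters are from RefSeq (GRCh38.p14), for 35 of 38 genes, and motifs were searched on both strands. The p-values measure the spread between passages of 1 cell line.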

Additional observations from a re-analysis of the deposited data

Results flagged for a closer look

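A sample stood apart from the other 3 of its group for 5 of the 152 combinations of gene and group, where Dixon's test at this level marks about 1 in 20 by chance. They were BRCA1 in DMSO replicate 2 (75.8 CPM, the lowest), BRIP1 in RA replicate 2 (27.3 CPM, the lowest), FANCI in PB replicate 2 (92.0 CPM, the lowest), ATM in PB+RA replicate 4 (90.2 CPM, the highest) and PMS2 in DMSO replicate 3 (23.0 CPM, the lowest).

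The effect of RA differed between cells with and without PB, by the interaction term, for 13 of the 38 genes. As the effect with PB minus that without it, on the log2 scale, the values were -0.88 for BRCA2, -0.86 for CLSPN, -0.76 for FANCI, -0.76 for POLQ, -0.68 for FANCD2, -0.65 for RAD54L, -0.65 for RAD51AP1, -0.65 for BRCA1, -0.64 for EXO1, -0.63 for FANCG, -0.61 for FANCA, -0.52 for XRCC3 and -0.50 for XRCC2.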

How the results depend on the processing

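No called change of the 38 genes reversed under any of 30 alternative settings. The numbers lower with PB+RA against DMSO (29 to 32) and against RA (25 to 31) moved by at most 1.5 times, being 20 and 19 at a log2 minimum of 1. At that minimum 1110 and 884 of the 15415 genes tested were lower. The cause of the following moves was not tested beyond what a setting itself removes. The number lower with PB (22) was 8 at a log2 minimum of 1, and the number lower with PB+RA against PB (19) was 7 there and 31 with no fold minimum. Of the 15415 genes tested, 546 and 389 were lower at a log2 minimum of 1. With no fold minimum 3225 were lower with PB+RA against PB. The 2 genes higher with PB became 1 with no filter on low counts, 0 with the GC and length correction, 0 with that correction and the replicate block, 0 in replicates 3 and 4 alone, 3 with no fold minimum, 0 at a log2 minimum of 1, and 0 to 2 when 1 library was left out. The gene higher with PB+RA became 3 with no fold minimum, 0 at a log2 minimum of 1 and 0 to 1 with 1 library left out. With RA alone, 0 lower became 2 with no filter, 1 in replicates 1 and 2, 3 in replicates 3 and 4, 15 with no fold minimum and 0 to 1 with 1 library left out. Against RA, 0 higher became 1 with library totals alone as scaling, 3 with no fold minimum and 0 to 1 with 1 library left out. With no fold minimum, 4378 of the 15415 genes tested were higher with PB, 5350 with PB+RA against DMSO and 4090 with PB+RA against RA. With RA alone 2527 were lower with no fold minimum. The interaction's 13 became 8 with DESeq2's size factors in edgeR, 8 with no filter, 6 in replicates 3 and 4, 0 at a log2 minimum of 1 and 6 to 12 with 1 library left out. Of all genes tested, 466 became 394, 322 (of 27037), 560 (of 15414), 142 and 289 to 445 in these settings. With the replicate block the 13 became 14, the added gene being BRIP1, and the block changed no other call of the 38. Over all 15415 genes tested the block took those below the sum from 466 to 981 and those above it from 64 to 190. Depth limits the genes under 5 CPM, RAD51B and FANCB, most.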

Other observations

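In the interaction, 6 of the 124 other repair genes tested (4.84%) were called below the additive expectation, against 3.02% of all genes tested. None was called above it, against 0.415%. Among the 6 were NEIL3 (-0.71 ± 0.17), CDC25A, a phosphatase that starts replication and is removed by the checkpoint (-0.68 ± 0.15), and RMI2, a partner of BLM (-0.59 ± 0.092). RECQL4, a helicase of replication start (-0.55 ± 0.15), and USP1 (-0.53 ± 0.15) were also among them. All are log2 values ± SE with adjusted p between 0.0015 and 0.045. With RA alone the 5 calls among these genes were PAXX, an end joining factor (-0.59 ± 0.063), NEIL3 (-0.56 ± 0.11), TIPIN, a fork protection protein (-0.52 ± 0.087), RAD9A, a subunit of the checkpoint clamp (-0.51 ± 0.07), and ERCC2 (0.63 ± 0.064), which rose. ERCC2 and NEIL2 were the 2 other repair genes called higher with PB+RA than with PB, at 0.88 ± 0.064 and 0.74 ± 0.12. These were 1.61% of the 124 tested, against 9.02% of all genes. In the same comparison 19 of the 124 (15.3%) were lower, against 7.27% of all genes. These genes were named after their values were seen.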
